A study of Mus musculus with 6 samples.

Results

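Genes for chromatin modifiers and remodellers were examined in a list of ac4C summits from 32D cells. They were taken by gene symbol: the Hdac, Smarc, Kdm, Kmt2, Chd (without Chd4), Brd, Setd, Dnmt, Tet, Kat, Arid, Ing, Cbx and Phf families, together with Ep300, Crebbp, Ezh2, Eed, Suz12, H3f3a and H3f3b. The list held 19 such genes among 1485 in all, with 23 of its 1876 summits. A mouse RefSeq gene table names 142 protein-coding genes of these families, so 123 of them had no listed summit.

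The cells were 32D, a wild-type mouse bone marrow line that was grown in 10% FBS with mouse IL-3 at 10 ng/mL, conditions that all groups shared. Poly(A) RNA was immunoprecipitated with an ac4C antibody (2 libraries) or with IgG (2 libraries), or was kept as input (2 libraries). The labels do not tell separate cultures from repeat libraries of 1 culture. Peaks were called once, on both ac4C libraries merged, so every value is pooled, no replicate error can be given, library depth is unknown, and no comparison with IgG or input was made here. Marker lists were chosen with earlier results of these data known, so their counts are a description and no check of the label. Of 15 myeloid genes, 6 had a listed summit, where 6.7% of all protein-coding genes, expressed here or not, had one. They were Spi1, Myb, Fcer1g, Gata1, Csf2rb and Prtn3, with folds of 53.6, 51.7, 44.6, 31.8, 9.02 and 4.27. The rest, Il3ra, Mpo, Elane, Ctsg, Cebpa, Cebpe, Ptprc, Gata2 and Kit, had none. No gene of 6 B cell, 6 T cell or 6 non-hematopoietic markers was listed, and 1 of 6 erythroid markers was, Hba-a1. With a background share of 6.7%, lists of 6 genes are too short for such absences to check the label. These short marker lists do not stand for all other tissues: the list also held, chosen after their values were seen, the gene of the postsynaptic scaffold Shank1 with a fold of 160.9 and the odorant receptor gene Olfr1423 with 96.8.

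N4-acetylcytidine (ac4C) is a modified cytidine that the acetyltransferase Nat10 writes on RNA, and in mRNA it has been linked to transcript stability and translation. Chromatin modifiers add or remove acetyl and methyl groups on histones or methyl groups on DNA, readers bind those marks, and remodellers use ATP to slide or evict nucleosomes. In blood formation these proteins hold stem and progenitor programmes open or closed, and several of their genes, such as Kmt2a, Tet2 and Dnmt3a, are recurrent targets of mutation in leukaemia.

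Listed chromatin genes were 19 of 142, or 13.4% (exact Clopper-Pearson 95% interval 8.25% to 20.1%, counting error only). Of all 21896 protein-coding genes in the table, 1468 were listed, or 6.7%. The wider set includes genes that these cells may not express, and expression was not measured, so the 2 shares differ in more than the gene family. Whether unlisted genes lack ac4C cannot be read from the list, and being listed is no proof of the mark either. In these bulk libraries, fewer cells with a transcript and less of it per cell cannot be told apart.

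Summit height is given here on the scale of the authors' peak caller, as fold enrichment. Every fold was a whole multiple of 1 step, which corresponds to a pileup of overlapping ac4C fragments over the same background of 1.11 fragments at every summit. The fold therefore has no term for the abundance of the transcript, and differences between genes below are differences in pull-down height, not in acetylation per molecule. Exact Poisson 95% intervals on the pileup are given to show its counting error. They assume independent fragments and do not cover the spread between cultures.

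By highest summit, the chromatin genes ran from a fold of 57.9 on Cbx3 to 3.80 on Dnmt1, with a median of 9.49 (quartiles 5.70 and 18.0; 19 genes). Over the other 1466 listed genes the median was 12.3 (quartiles 7.12 and 21.2). At or above the upper quartile of all listed genes stood 5 of 19, or 26.3% (exact interval 9.15% to 51.2%), where the whole list had 25.1%. Below the lower quartile stood 7 of 19, or 36.8% (16.3% to 61.6%), where the whole list had 22.7%. Both intervals covered the share of the whole list, so no shift toward either end was detectable with 19 genes. At or above the list's median summit fold of 11.4 there were 8 of the 142 family genes, or 5.63% (exact interval 2.46% to 10.8%). All protein-coding genes had 3.64%, which that interval covered, so no difference was detectable for these taller summits.

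**Figure D1:**
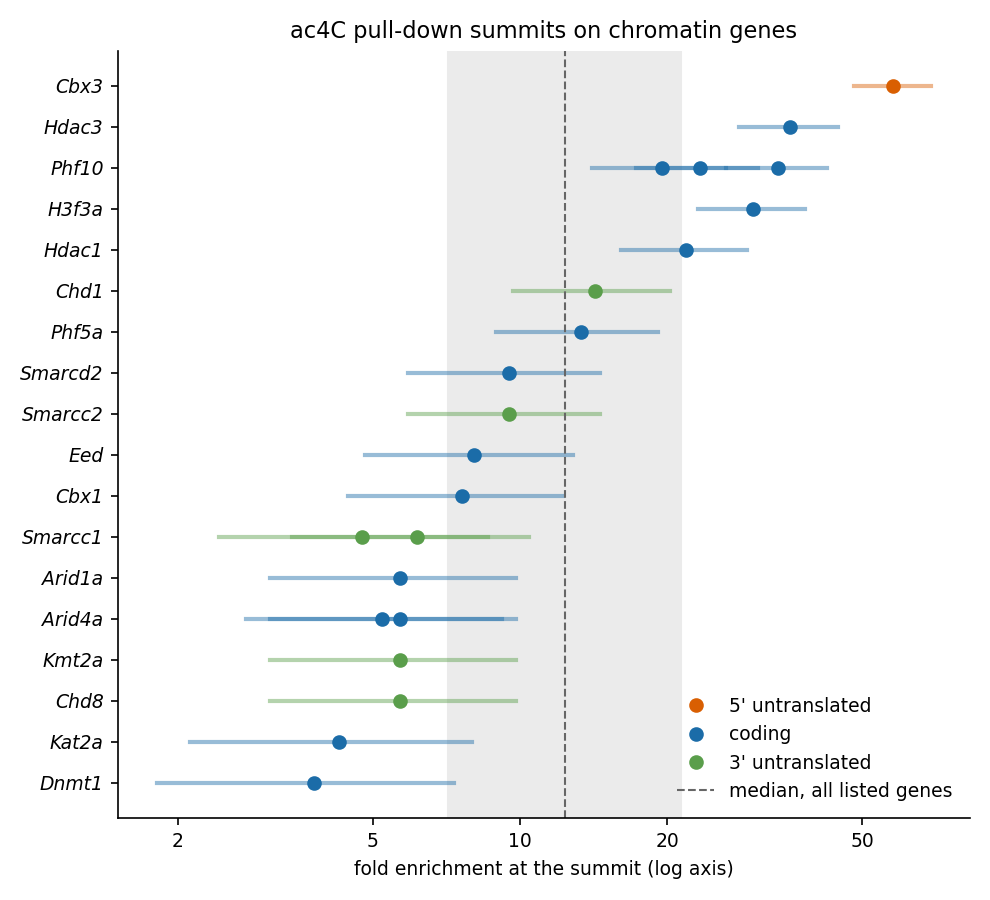
Fold enrichment at 22 summits on 18 of the 19 chromatin genes (log axis), 1 row per gene in order of the highest fold. Points are summits coloured by region, bars are exact Poisson 95% intervals of the pileup turned into folds, and the grey band and dashed line are the quartiles and median over all 1485 listed genes. Cbx3 stands at 57.9, apart from the others, and the lower 11 genes all lie left of the median of 12.3.

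The order of the 19 genes rested on few firm steps. Among 18 pairs of neighbours in that order, the pileup intervals overlapped in 17. The exception was the first step, where Cbx3 had 121 fragments (interval 100.4 to 145) and Hdac3 had 74 (58.1 to 92.9). Hdac3, Phf10 and H3f3a, which followed it, each had an interval above those of 14 other chromatin genes, and Hdac1 above those of 11. From Smarcd2 downward no gene's interval lay above that of another.

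The chromobox genes held the tallest summit and a low one. Cbx3 encodes HP1 gamma, a reader of the methylated histone H3 tail that marks heterochromatin and that also sits on active genes. Its summit lay at nt 184 of ENSMUST00000031862, in the 5' untranslated region, and its fold of 57.9 ranked 46th of 1485 genes. It was the only 5' untranslated summit among the chromatin genes. Cbx1, which encodes the paralog HP1 beta, had a coding summit of 7.59 at nt 410 of ENSMUST00000079702, with a pileup of 15 (8.40 to 24.7), so the pileups of the 2 HP1 genes did not overlap in their intervals. Cbx5, the gene of HP1 alpha, had no listed summit. The gene table holds 6 pseudogene copies named for Cbx3, and how reads shared with them were placed is not stated, so the Cbx3 value is uncertain to that extent.

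Of the Polycomb genes, which encode repressors that place and read methylation on histone H3, 1 was listed. Eed encodes the subunit of the Polycomb repressive complex that binds the methylated histone tail. Its coding summit lay at nt 397 of ENSMUST00000238792 with a fold of 8.07 (pileup 16, interval 9.15 to 26.0). No summit was listed for its partners Ezh2, the methyltransferase, and Suz12, the scaffold, nor for the accessory genes Phf1 and Phf19. The Polycomb chromobox genes Cbx2, Cbx6, Cbx7 and Cbx8 had none either. Polycomb and HP1 genes together gave 3 listed of 13.

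Histone deacetylases, which remove acetyl groups from lysines, had 2 listed genes of 11, and both stood high. Hdac3, the catalytic subunit of the nuclear receptor corepressor complexes, had a coding summit of 35.6 at nt 304 of ENSMUST00000043498. Hdac1, a catalytic subunit of the NuRD, Sin3 and CoREST complexes, had one of 21.8 at nt 116 of ENSMUST00000102597 (pileup 45, interval 32.8 to 60.2). The intervals of these 2 genes overlapped, and they ranked 151st and 344th of the 1485 genes. Hdac2, the close paralog and complex partner of Hdac1, was not listed, nor were Hdac8 or any of the 7 genes Hdac4 to Hdac7 and Hdac9 to Hdac11. The table holds 1 pseudogene copy named for Hdac1.

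The opposing acetyltransferases and their partner subunits had 1 listed gene of 17. Kat2a encodes GCN5, the acetyltransferase of the SAGA and ATAC coactivator complexes. Its coding summit at nt 1040 of ENSMUST00000103118 was near the low end of the list, with a fold of 4.27 and a pileup of 8 (3.45 to 15.8), and it ranked 1387th. The interval lay wholly below those of both deacetylase genes. Its paralog Kat2b, the coactivators Ep300 and Crebbp, and Kat5, Kat6a, Kat6b, Kat7, Kat8, Kat14 and the Ing genes had no listed summit.

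Readers of histone marks, counted by symbol as the remaining Brd and Phf genes whatever their known function, had 2 listed of 24. Phf5a, 1 of them, carries a family name for its zinc finger but encodes a subunit of the SF3b splicing complex, and so is not a chromatin gene by known function. It had a coding summit of 13.3 at nt 132 of ENSMUST00000023117, with a pileup of 27 (17.8 to 39.3).

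SWI/SNF and ISWI remodellers, counted by symbol whatever their known function, contributed the most listed genes, 5 of 19, or 26.3% (exact interval 9.15% to 51.2%). That interval lay above the 6.7% of all protein-coding genes, while those of all other chromatin groups covered 6.7%. No allowance was made for looking at 11 groups, and the 6.7% includes genes that these cells may not express. Polycomb and chromobox genes, at 23.1% of 13, and CHD genes, at 22.2% of 9, had similar shares with fewer genes. The interval thus does not set SWI/SNF and ISWI genes apart from them. The interval of every group covered the 13.4% of all family genes, so the order of the groups by share is no result. Phf10, the gene of a subunit particular to the PBAF form of the complex, had the highest fold of the 5 genes, 33.7. It was the only chromatin gene with several listed summits on 1 transcript. On ENSMUST00000024657 its coding summits lay at nt 116, nt 717 and nt 837, with folds of 33.7, 23.3 and 19.5. The folds became smaller away from the transcript start, and the intervals of the pileups, 70 at the first summit and 40 at the last, overlapped between neighbouring summits. The letters in the summit names (a, c and d of 1 peak) show that a further summit of that peak is not among those analysed here. The same holds for Cbx1, whose summit has the letter b, and for H3f3a, whose summit has the letter a, so these genes may have had more summits than are listed.

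The other listed SWI/SNF genes were low. Smarcc1 and Smarcc2 encode the BAF155 and BAF170 scaffold subunits, and both had 3' untranslated summits. Smarcc2 had a fold of 9.49 at nt 4457 of ENSMUST00000026433. Smarcc1 had 6.17 at nt 5287 of ENSMUST00000088716 and 4.75 at nt 5660 of ENSMUST00000199896, which are different isoforms, so these may be 1 site. Smarcd2, the BAF60b subunit gene that is known for its part in granulocyte development, had a coding summit of 9.49 at nt 491 of ENSMUST00000106843. Arid1a, the large DNA-binding subunit of the canonical BAF complex, had a coding summit of 5.70 at nt 5365 of ENSMUST00000105897. Neither ATPase gene, Smarca2 or Smarca4, was listed, and none of the 6 Smarca genes was. The core subunit genes Smarcb1 and Smarce1, and the PBAF genes Arid2 and Brd7, were also without a summit.

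CHD remodellers, counted by symbol and mostly chromodomain ATPases, had 2 listed genes of 9. Chd1, which travels with elongating RNA polymerase, had a 3' untranslated summit of 14.2 at nt 6552 of ENSMUST00000024627 (pileup 29, interval 19.4 to 41.6). Chd8, a regulator of Wnt and p53 target genes, had one of 5.70 at nt 8311 of ENSMUST00000200169 (pileup 11, interval 5.49 to 19.7). The 2 intervals just overlapped. Chd1l, Chd2, Chd3, Chd5, Chd6, Chd7 and Chd9 had no listed summit.

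**Figure D2:**
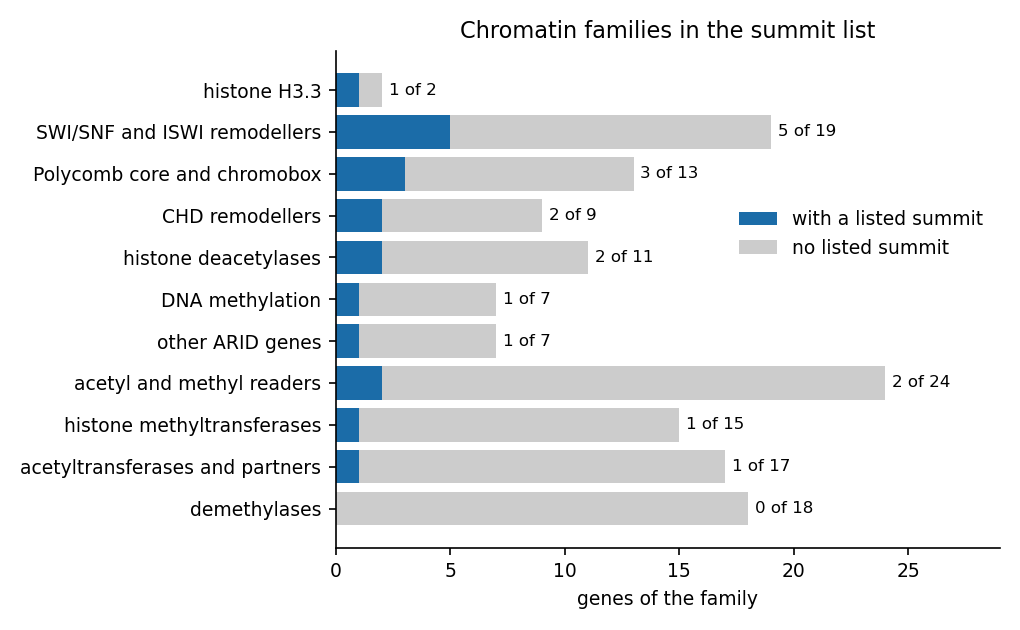
Genes of each chromatin group with a listed summit (blue) and without one (grey), as counts of genes; the labels give listed of all. SWI/SNF and ISWI remodellers have 5 of 19 and demethylases 0 of 18.

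The listed genes of methyl-group enzymes had low folds. The Kmt2 and Setd families, counted by symbol as histone methyltransferases whatever their known function, had 1 listed gene of 15, Kmt2a. Kmt2a encodes the MLL1 enzyme that methylates histone H3 at active genes and is needed for blood stem cells. Its summit had a fold of 5.70 at nt 16275 of ENSMUST00000114689, the farthest from a transcript start of the 23. Kmt2b, Kmt2c, Kmt2d, Kmt2e and all 10 Setd genes had none. The histone demethylases, which reverse these marks, had 0 of 18 Kdm genes listed, which allows a share of up to 16.7% by the limit of 3 counts, or 18.5% by the exact interval, above the 6.7% of all protein-coding genes. The absence of Kdm genes is thus within what the background share allows.

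For DNA methylation, 1 of 7 genes was listed. Dnmt1, the maintenance methyltransferase that copies the mark at replication, had the lowest fold of all the chromatin genes, 3.80 at nt 4168 of ENSMUST00000216540, in coding sequence (pileup 7, interval 2.81 to 14.4). It ranked 1428th of 1485, and its −log10 p-value in the authors' deposited table was 4.68. The de novo enzymes Dnmt3a and Dnmt3b, their cofactor Dnmt3l, and the dioxygenases Tet1, Tet2 and Tet3 that start demethylation were not listed.

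The last genes were a histone and an ARID protein. H3f3a encodes the replacement histone H3.3 that is laid down outside replication, and its coding summit of 29.9 lay at nt 276 of ENSMUST00000162814 (pileup 62, interval 47.5 to 79.5). H3f3b, which encodes the same protein, was not listed. Near-identical copies can share reads, and the table holds 2 pseudogene copies named for H3f3a, so its value is uncertain. Arid4a, the gene of a retinoblastoma-binding subunit of the Sin3 complex, had coding summits of 5.70 at nt 2115 of ENSMUST00000046305 and 5.22 at nt 1184 of ENSMUST00000135709, again on different isoforms. Its paralog Arid4b was not listed.

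Arid4a, Phf10 and Smarcc1 were thus the 3 genes of 19 with several listed summits, or 15.8%, where 20.1% of all listed genes had several. All 19 genes carried their listed summits in 1 region, which for the 16 genes with 1 summit holds by construction.

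Coding sequence held 15 of the 23 summits, or 65.2% (95% interval 42.7% to 83.6%), and for summits on other genes the share was 47.8% of 1853. The 3' untranslated region held 7, or 30.4% (13.2% to 52.9%), where other genes had 45.1%. The 5' untranslated region held 1, or 4.35% (0.110% to 21.9%), where other genes had 7.12%. Each of the 3 shares of the other genes lay inside the interval of the chromatin genes, so no difference in region was detectable with 23 summits. Among family genes, 12 of 142 had a coding summit, or 8.45%, where 3.45% of all protein-coding genes had one.

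**Figure D3:**
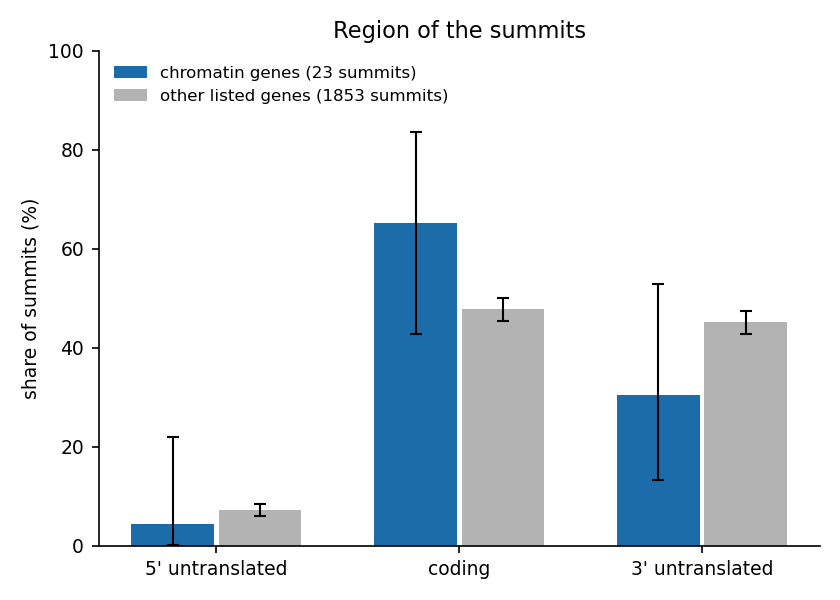
Share of summits in each region of the mRNA, in percent, for the 23 summits on chromatin genes (blue) and the 1853 summits on other genes (grey). Bars are shares and whiskers exact 95% intervals; the coding shares are 65.2% and 47.8%.

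Within the chromatin genes, summits near the transcript start were taller than those farther along, a pattern looked for after the values were seen. The 5 summits at or before nt 300 lay on Phf10, Hdac1, Phf5a, Cbx3 and H3f3a, with folds from 13.3 to 57.9 and a median of 29.9. Of these genes, Cbx3, H3f3a and Hdac1 have named pseudogene copies, and Phf5a is not a chromatin gene by known function. The 18 summits beyond nt 300 had folds from 3.80 to 35.6 and a median of 6.88. Hdac3, at nt 304, and the later Phf10 summits were the highest of that second set. The share of summits at or before nt 300 was 21.7% for chromatin genes and 17% over the whole list.

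The same split was smaller on other genes, where 314 early summits had a median fold of 12.8 and 1539 later ones 11.4. Across the 23 chromatin summits, Pearson's r between log2 position and log2 fold was -0.66 and Spearman's rho between position and fold was -0.60. Across the other 1853 summits r was -0.09 and rho -0.08. Over coding summits alone r was -0.72 for 15 on chromatin genes and -0.18 for 885 on other genes. Over the 7 summits in the 3' untranslated region of chromatin genes r was -0.34. These coefficients are descriptions across sites of 1 merged pull-down, and sites of 1 gene share its transcript. Early positions can also belong to short transcripts, and transcript length and abundance were not measured, so their part was not tested.

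**Figure D4:**
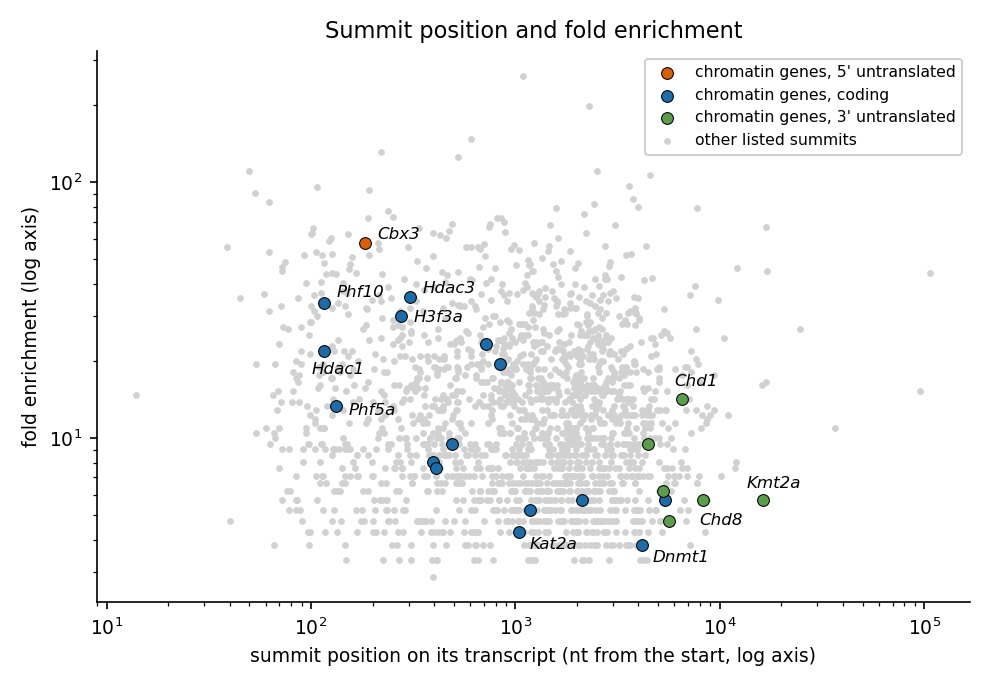
Fold enrichment against summit position in nt from the transcript start (both log axes) for 22 of the 23 summits on chromatin genes, coloured by region, and the other 1853 summits in grey. The chromatin summits run from tall ones near the start, such as Cbx3 at nt 184, to low ones far along, such as Kmt2a at nt 16275.

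Other chromatin genes outside these families were counted from a list of 86, of which 84 are in the gene table. Of these, 13 were listed, or 15.5% (8.51% to 25.0%), where all protein-coding genes had 6.7%. The list was chosen with earlier results of these data known, and it includes Chd4, which was left out of the families above. The median highest fold of the 13 was 15.2, where all listed genes had 12.3. The highest was Dpy30, a core subunit of the Kmt2 methyltransferase complexes, with 52.2 at nt 127 of a 5' untranslated region, and its summits on 3 other isoforms had folds from 9.49 to 11.4. Ash2l, another subunit of those complexes, had 7.12, and their subunits Wdr5, Rbbp5 and Men1 were not listed.

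Partners of the listed genes were listed in part, which is no result by itself where 15.5% of such other chromatin genes were listed. In the NuRD deacetylase complex, where Hdac1 had 21.8, the remodeller gene Chd4 reached 31.8, Mbd2 had 17.1, Mta1 7.12 and Mbd3 6.65, while Hdac2, Mta2, Mta3, Rbbp4, Rbbp7, Gatad2a and Gatad2b had no listed summit. Uhrf1, which brings Dnmt1 to newly copied DNA, had a 3' untranslated summit of 15.2 and a coding one of 7.59, and Dnmt1 itself had 3.80. In the Sin3 complex, Sap18 had 17.6 at nt 110 in coding sequence, Hdac1 had 21.8 and Arid4a 5.70, and Sin3a and Sin3b were not listed.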

How the data were processed

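The samples were 6 acRIP-seq libraries of 32D cells. Cutadapt, Bowtie2, MACS2 and build GRCm39 are named per the submitters' processing notes; versions, the control for peak calling and the filter on summits are not given in the sources used. The deposited list gives, per the file headers, each summit's position on an Ensembl transcript, its fold enrichment, which is a ratio, and its p-value as −log10, all made by the authors. A column of q-values was not used here. Summit names read as 1 call on merged ac4C libraries.

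From these values the pileup was recovered: all 1876 folds lay within 0.01 of a whole multiple of 0.475, and the deposited −log10 p-values followed from the Poisson tail of that pileup with a largest relative deviation of 0.000474%. On simulated data the recovery returned 2000 of 2000 pileups, which checks its arithmetic alone and says nothing of the deposited list. Of 1485 symbols, 1475 matched RefSeq's mouse genes (GRCm38.p6), a table taken for names, types and order of genes; all 19 chromatin genes matched. No genome, transcript or protein sequence was used here, so positions are on transcripts.

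Members and lists were chosen with earlier results of these data known, and no test was run over them. Counts, medians and exact 95% intervals are descriptions. Of the 19 chromatin genes with a listed summit 18 were named; 1 is not reported here by name but is in all counts, medians and ranges. Unlisted genes were named by family. Role groups were set by symbol. Settings changed were the fold threshold, summits counted, symbols, denominators and genes left out. Work used Python 3.11.15, pandas 2.3.3 and scipy 1.17.1.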

Additional observations from a re-analysis of the deposited data

How the results depend on the processing

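With summits at or above the list's median fold alone, the chromatin genes listed were 8 in place of 19, their share of the families 5.63% and their median fold 25.9, by construction of that setting. With coding summits alone 12 genes were listed. Counting summits on any 1 transcript, 1 gene had several in place of 3. The other 16 recomputed values, 6 of them under settings chosen after seeing the data, changed no count by over 1.5 times and left no share, median or correlation outside its 95% interval. Those intervals were wide, such as 5.70 to 21.8 for the median fold and -0.84 to -0.34 for r, which treats summits as independent. The settings reused nearly the same genes, so staying inside is little evidence that a value is stable. Without the genes that have a named pseudogene copy (Cbx3, H3f3a and Hdac1) the median fold was 7.83, r with position -0.56 and Spearman's rho -0.45. No paired analysis was possible because each value pools both ac4C libraries, and leaving out a replicate was not run for the same reason. Depth per library is unknown; pileups over the list ran from 5 to 548 with a median of 23, and 7 of the 19 chromatin genes had pileups of 12 or less, where counting error is widest.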

Other observations

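A protein-coding neighbour in the order of the gene table was also listed for 5 of 19 chromatin genes, or 26.3%, where 17.8% of 1468 listed genes had one. Among the pairs were Cbx3 at 57.9 beside the hnRNP gene Hnrnpa2b1 at 8.54, and Hdac3 at 35.6 beside the actin nucleator gene Diaph1 at 6.17. In 2 others the neighbour was the taller, with Arid1a at 5.70 beside the GPI-anchor gene Pigv at 15.2, and Dnmt1 at 3.80 beside the translation factor gene Eif3g at 28.0. None of these 4 pairs overlaps in the gene table.

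Some paralog pairs had 1 listed gene and others both; with 13.4% of family genes listed, an unlisted paralog is the usual case and is no result by itself. Hdac1, Kat2a, H3f3a and Arid4a were listed while Hdac2, Kat2b, H3f3b and Arid4b were not, and Smarcd2 was listed without Smarcd1 or Smarcd3. Of the HP1 genes, Cbx1 and Cbx3 were both listed. Smarcc1 and Smarcc2 were both listed, too, and both in the 3' untranslated region, with highest folds of 6.17 and 9.49. These pairs were picked after their values were seen, and the abundance of each transcript was not measured.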
